A study of Kluyveromyces marxianus with 6 samples.

Results

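The 36 mRNAs described here were at or close to 0 in early-exponential (EE) cells of *Kluyveromyces marxianus* and clearly measured in late-exponential (LE) cells. They are the transfrags of class mRNA with an EE level of 4.00 or less and an LE level of 50 or more. They make up 36 of the 5785 mRNA transfrags (0.622%) among 14298 transfrags of all classes. A transfrag is an unbroken stretch of the genome covered by reads on 1 strand, and an mRNA transfrag runs in the sense direction of an annotated gene and has coding potential. A level is the number of reads on the transfrag after division by a library size factor, averaged by the authors over the libraries of a growth phase, and it is not scaled by length. The members were selected on their EE and LE levels, so both are given as a description, with no test. Of the 2634 mRNAs at 50 or more in LE, 1.37% met the EE limit, and of the 527 mRNAs at 4.00 or less in EE, 6.83% met the LE limit.

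The cells were the haploid strain KM7 (ATCC 36907), with no engineered allele named, grown with shaking in yeast nitrogen base medium that lacked uracil and held dextrose as the sugar. They were harvested at an optical density of about 3 (EE), 7 (mid-exponential, ME) and 10 (LE), with 2 biological replicates at each density. The RNA was depleted of ribosomal RNA and read by a strand-specific (dUTP) method. All 3 groups share the strain and the medium and differ in culture density, so time in culture, nutrient use and cell density cannot be told apart.

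As a yeast culture grows denser, glucose and other nutrients are drawn down, and cells adjust the expression of genes for sugar sensing, carbon metabolism and nutrient uptake. In *Saccharomyces cerevisiae*, genes for low-glucose sensing and gluconeogenesis are known to be held down in rich glucose and expressed when it runs short. Whether glucose had a part in the levels described here was not tested. *K. marxianus* is known as a Crabtree-negative yeast, one that respires rather than ferments sugar when oxygen is plentiful, and for weak glucose repression. Many yeast genes are also overlapped by antisense RNA, and here antisense transfrags were classed by the authors as long (lancRNA) or short (sancRNA) antisense non-coding RNA.

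The expression table used here holds 1 averaged level per phase, so the spread between the 2 replicates of a phase is not known for ME and LE and no test of a change was possible. For EE the low levels can be taken apart. They are sums of 2 steps, 0.707 and 1.33, each the contribution of 1 read in 1 of the 2 EE libraries, called library a and library b here because the steps do not show which replicate is which. The size factors of the phase summed to 1.08 (EE), 3.22 (ME) and 2.96 (LE), so 1 read weighs more in EE than later. The limit of 4.00 equals 3 reads in library b.

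The members had between 0 and 5 EE reads each. In all they held 76 reads, 47 in library a and 29 in library b, so library a gave 61.8% of the reads and 65.4% of the summed size factor. The EE limit by itself allows no more than 5 reads in library a or 3 in library b. No read fell on 5 members, 1 to 3 reads on 26, and 4 or more on 5.

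EE levels ran from 0 to 4.00 with a median of 2.04. ME levels ran from 28.56 to 351.74 with a median of 70.38, and LE levels from 52.11 to 453.65 with a median of 87.55. The lowest ME level was above the highest EE level, which the rule held at 4.00 or less. That order is given as a description and was not counted over other mRNAs. Set against the limit of 4.00, the LE levels were 13.0 to 113 times as high, with a median of 21.9. The rule makes every member reach at least 50 over 4.00. Of all mRNAs, 334 (5.77%) had an LE to EE ratio that large when EE levels under 4.00 were set to 4.00. The exact 95% counting limit of the LE to EE ratio, from the reads of both phases, had a lower bound of 5.75 to 88.0 over the members, with a median of 14.7, and 21 members had a bound of at least 50 over 4.00. These bounds, and the counting intervals given with ratios below, cover counting error only and assume equal levels in the libraries of a phase. They use the same EE and LE levels that chose the members, so a bound above 1 follows from the rule and supports nothing.

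**Figure D1:**
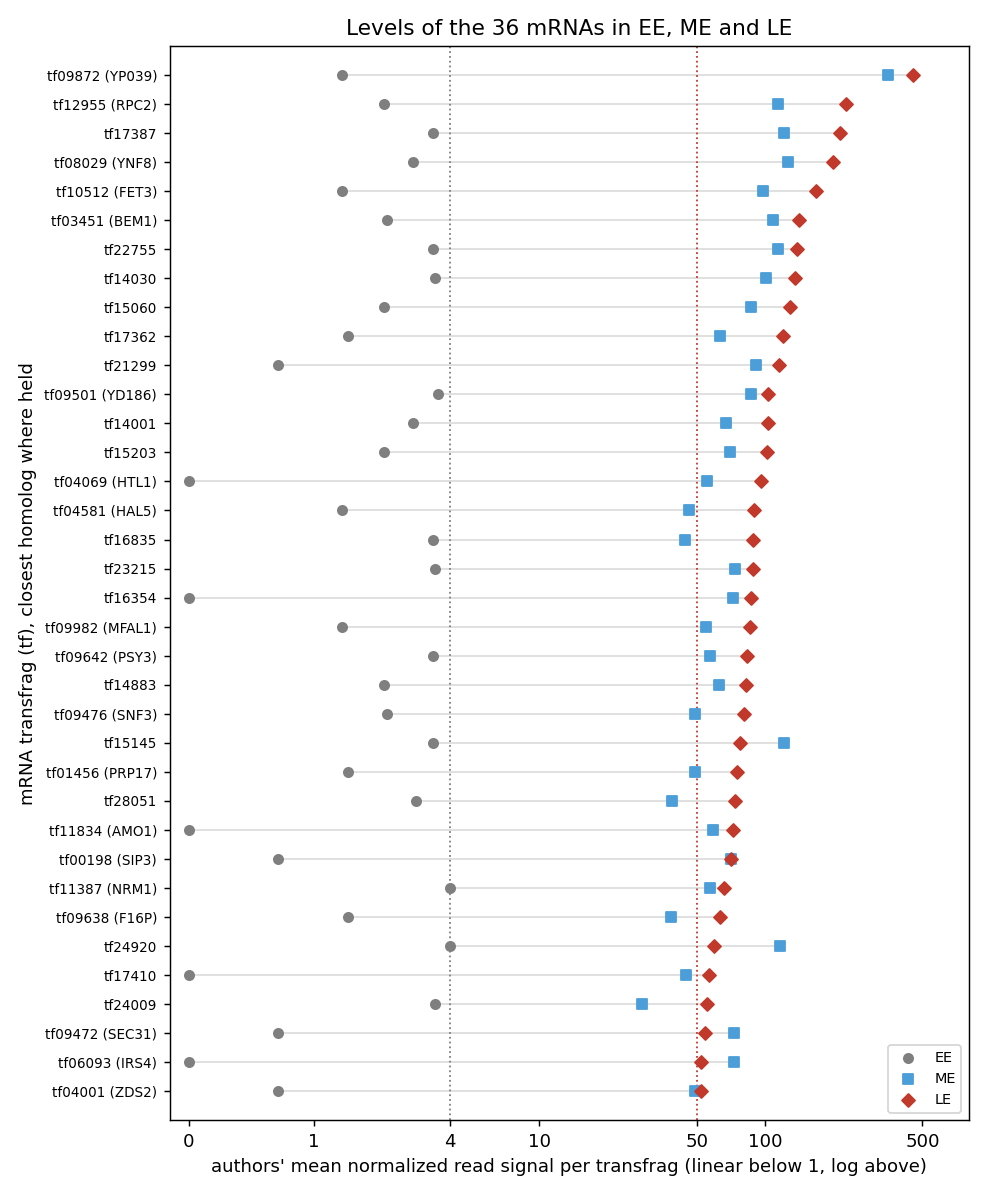
Level of each of the 36 mRNAs in EE (circles), ME (squares) and LE (diamonds), ordered by LE level, on an axis that is linear below 1 and logarithmic above; each symbol is the authors' mean over 2 libraries, without an error, and the dotted lines mark the limits of 4.00 and 50. All EE symbols lie at 4.00 or less, the ME symbols lie between 28.56 and 351.74, and the ME symbol sits to the right of the LE symbol for 4 mRNAs.

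ME levels were not used by the rule, although they share the EE libraries with it when set against EE. All 36 members were above 4.00 in ME, and 27 of them were at 50 or more. Among the 527 mRNAs at 4.00 or less in EE, 31 (5.88%) were at 50 or more in ME, these 27 included. Of the 527 only the members met the LE limit, so 5.88% is not a share among mRNAs of high LE level. High ME levels were usual there, with a median of 299 over the other mRNAs at 50 or more in LE, against 70.38 in members. Over all mRNAs, 207 (3.58%) had an ME to EE ratio of at least 50 over 4.00, again with low EE levels set to 4.00. On the deposited scale the LE to ME ratio ran from 0.512 to 2.00, with a median of 1.39, and 35 of 36 members lay within 2-fold. Among the other 2598 mRNAs with an LE level of 50 or more the median ratio was 1.39 as well. LE was above ME in 32 members (88.9%) and in 81.5% of those other mRNAs. That order depends on the scaling. With levels scaled by mapped reads the median ratio was 0.958, and 17 members were higher in LE and 19 in ME, and with equal sums the median was 1.02 with 18 members on each side. The other mRNAs had medians of 0.959 and 1.02 on those scales.

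On the deposited scale 4 members were higher in ME than in LE. One was SEC31, a subunit of the COPII coat that buds vesicles from the endoplasmic reticulum in *S. cerevisiae*, with EE, ME and LE levels of 0.71, 72.77 and 54.3. IRS4, which in *S. cerevisiae* takes part in phosphoinositide regulation and autophagy, was listed at 0, 72.69 and 52.13. The lowest LE to ME ratio was that of transfrag24920, at 4.00, 116.43 and 59.58. The last was transfrag15145, at 3.37, 121.14 and 77.49, which was named after its values were seen.

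Gene names come from the study's homolog table, held here in part, which gave a gene model and a closest homolog to 19 members. Gene names of the other 17 were not analysed here. Levels below are given in the order EE, ME, LE, and roles are those of the *S. cerevisiae* proteins unless another species is named.

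The highest member was a transfrag of a gene most like YP039, a protein without a known role, at positions 376325 to 376768 of contig 105 on the plus strand of the authors' draft genome. Its EE level of 1.33 came from 1 read in library b, and its later levels were 351.74 and 453.65. The LE level was 113 times the limit of 4.00, and the LE to EE ratio, over 1 EE read, was 341 with a 95% counting interval from 88.0 to 19404. Next by LE level among homologs listed under a systematic name only was YNF8 (transfrag08029, contig 104, 341612 to 342284), with 2.75, 126.81 and 200.65. YD186 (transfrag09501, contig 105, 136063 to 136885) followed, with 3.54, 86.84 and 103.65. YD186 had the most EE reads of any member, 5, all of them in library a.

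The named genes are taken in turn by the roles of their homologs, an order that was not tested as a grouping. FET3 is the multicopper oxidase that works with an iron permease in high-affinity iron uptake. Its member (transfrag10512, contig 105, 791630 to 792165, plus strand) was at 1.33, 98.31 and 168.16 in the same order. The LE level was 42.0 times the limit, and the ratio of LE to EE, over 1 EE read, was 126 with a counting interval from 32.5 to 7202. SNF3 is a glucose transporter homolog that senses low glucose. Its member (transfrag09476, contig 105, 117783 to 118112) was at 2.12, 48.89 and 80.82, with LE at 20.2 times the limit and a ratio to EE of 38.1 (9.86 to 142). HAL5, a protein kinase that stabilises potassium and nutrient transporters at the plasma membrane, was at 1.33, 45.88 and 89.16 (transfrag04581, contig 103, 933584 to 934038). AMO1 is a copper amine oxidase of *Aspergillus niger*, an enzyme that releases ammonia from amines. Its transfrag (transfrag11834, contig 105, 508277 to 508755, minus strand) had no EE read and stood at 58.94 and 72.41 later, at least 18.1-fold higher than the floor of 4.00 (3 reads in library b). MFAL1, the precursor of the alpha mating pheromone, was at 1.33, 54.86 and 85.98 (transfrag09982, contig 105, 443306 to 443668).

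RPC2 is the second-largest subunit of RNA polymerase III, which makes transfer RNAs and 5S RNA. Its member (transfrag12955, contig 106, 87763 to 88140) was at 2.04, 114.53 and 228.25, with 1 read in each EE library, LE at 57.1 times the limit and a ratio to EE of 112 (34.1 to 1022). HTL1 is a small subunit of the RSC chromatin remodelling complex. Its member (transfrag04069, contig 103, 557679 to 557839, plus strand) had no read in either EE library and later levels of 55.5 and 95.95, at least 24.0-fold higher than the same floor. PRP17, a splicing factor, was at 1.41, 49.12 and 75.02 (transfrag01456, contig 91, 220717 to 221076). NRM1, a co-repressor of the transcription factor MBF that closes the G1 to S wave of transcription, sat on the limit at 4.00 in EE, from 3 reads in library b, and was at 57.16 and 65.99 later (transfrag11387, contig 105, 223891 to 224187). PSY3, a member of the Shu complex in recombination repair, was at 3.37, 57.23 and 83.62 (transfrag09642, contig 105, 233939 to 234261).

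BEM1, a scaffold of the Cdc42 polarity site, was at 2.12, 108.61 and 141.9 (transfrag03451, contig 103, 141407 to 141721). SIP3, first described as a partner of the Snf1 kinase and a member of a sterol-transfer family, was at 0.71, 70.45 and 71.0 (transfrag00198, contig 83, 32294 to 32621). ZDS2, a regulator of the phosphatase PP2A, was the member nearest to the LE limit, at 0.71, 48.98 and 52.11 (transfrag04001, contig 103, 513609 to 513956). F16P, the gluconeogenic enzyme fructose-1,6-bisphosphatase, fell outside the rule for named genes and is given after its values were seen, at 1.41, 38.32 and 63.04 (transfrag09638, contig 105, 231602 to 231965). It was the only gluconeogenic enzyme among the 19 homologs.

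Of the members with no homolog held here, the highest was transfrag17387 on contig 110, at 3.37, 121.11 and 214.29. It was followed by transfrag22755 on contig 112 at 3.37, 114.85 and 139.04. On contig 106, transfrag14030 was at 3.45, 101.45 and 135.45 and transfrag15060 at 2.04, 86.4 and 129.62. The other named ones, transfrag17362, transfrag21299, transfrag14001, transfrag15203, transfrag16835, transfrag23215 and transfrag16354, had LE levels from 86.87 (transfrag16354, with no EE read) to 120.38 (transfrag17362). For these 7 the ME level was below the LE level in each. The 5 members not named by the rule had EE levels of 0 to 3.45, ME levels of 28.56 to 121.14 and LE levels of 55.49 to 82.33.

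Near the EE limit the choice turned on single reads. Just inside the EE limit were NRM1 and transfrag24920 at 4.00 and YD186 at 3.54. Just outside it were MPD1, a protein disulfide isomerase homolog, at 4.08, 89.06 and 143.9, and YO021 at 4.08, 95.59 and 147.24. HCH1, an Hsp90 co-chaperone, was just outside as well, at 4.08, 67.27 and 51.48. Inside the LE limit were ZDS2 at 52.11, IRS4 at 52.13 and SEC31 at 54.3, and just under it transfrag30899 at 49.45, transfrag14473 at 49.38 and transfrag21457 at 49.15.

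The members were short, a feature the rule did not name. Their length ran from 161 to 823 bp with a median of 361.5 bp, beside 1073.5 bp over the other mRNAs with an LE level of 50 or more and 577 bp over all mRNAs. Since levels are not scaled by length, a short transfrag reaches fewer reads at the same abundance. Of the 166 mRNAs under 400 bp with an LE level of 50 or more, 23 (13.9%) were members. Of the 2468 of 400 bp or longer, 13 (0.527%) were, and none of the 1575 of 900 bp or longer. Per kb the members had a median EE level of 4.29 and a median LE level of 241, beside 409 in LE for the other mRNAs of high LE level. On the scale per kb, 31 of the 36 members were at 10 or less in EE, and so were 35 of the 2598 other mRNAs of high LE level, 13 of them 900 bp or longer. The low EE levels chose the members, so these values only describe them.

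**Figure D2:**
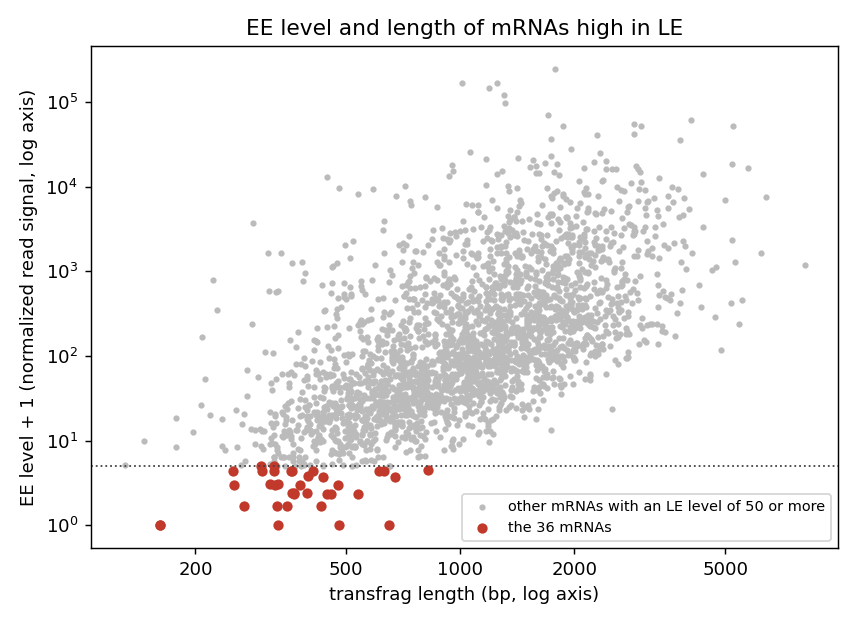
EE level plus 1 against transfrag length, both on log axes, for the 2634 mRNAs with an LE level of 50 or more; the 36 mRNAs are the large points below the dotted line at the EE limit, and each point is 1 transfrag. The 36 mRNAs lie between 161 and 823 bp, and none of the 1575 mRNAs of 900 bp or longer lies below the line.

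Of the 19 members with a gene model, most covered part of their gene. In these genes with a model, the member covered 6.75% (BEM1) to 95.7% (YD186) of the gene, with a median of 27.9%, and 15 covered under 50%. The start of the member lay within 150 bp of the gene start in 8, and its end reached or passed the gene end in 7, among them HTL1, IRS4 and MFAL1. In 8 genes the member was the single mRNA transfrag, namely PRP17, IRS4, HTL1, YNF8, YD186, F16P, PSY3 and MFAL1. For these the member's EE level is all of the mRNA signal that the table lists for the gene, although the IRS4 member covers only 9.30% of it. The other 11 genes held 19 further mRNA transfrags.

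Of those 19 pieces, 16 were above 4.00 in EE. Summed over all its mRNA pieces, the EE level was 4.00 or less in 9 of the 19 genes, the 8 single-piece genes and AMO1, and above it in 10. For the 8 single-piece genes the sum is the member's own level, so the rule fixed it. It does not show that the gene was off in EE, and the 36 mRNAs are called by their levels here. Across the 11 genes with several pieces, the gene sum in LE was 2.44 times (SNF3) to 27.5 times (FET3) that in EE. The median was 10.4, with the EE sum of AMO1 set to 4.00. Each sum includes the member, whose direction the rule fixed, so these ratios only describe the genes. Another piece was at least 2-fold higher in LE on the scale of level + 1 in 7 of the 11, and none in 4. The sum of YP039 went from 43.64 to 463.52, while its other piece went from 42.31 to 9.87.

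FET3 showed the same direction along the gene. Its longer upstream piece, which ends 84 bp before the member, was at 25.11, 309.66 and 558.7, and the LE to EE ratio had a counting interval from 15.3 to 33.8. In SEC31, both other pieces were higher in LE, at 6.75, 86.13 and 29.07 and at 17.9, 196.98 and 179.43. In AMO1 the second piece went from 2.83 to 17.9. These genes had no piece that was lower in LE.

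In other genes the pieces went apart. The upstream piece of YP039, 90 bp from the member, was at 42.31, 16.77 and 9.87, a ratio with a counting interval from 0.141 to 0.379, while the member beside it was at 453.65 in LE. The pieces of HAL5 downstream of the member were at 6.12, 0 and 0 and at 13.66, 8.06 and 3.46. In RPC2 and BEM1 one piece was higher and one was lower. RPC2 had 24.81 in EE and 154.14 in LE for transfrag12956, and 6.75 and 1.59 for transfrag12950. BEM1 had 26.37 and 305.19 for transfrag03448, and 6.12 and 1.49 for transfrag03457. SNF3 held the piece with the highest EE level of all 19, at 142.94, 192.65 and 289.01.

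On the scale of log2(level + 1), 8 of the 19 pieces were higher by 2-fold or more in LE, 8 at least 2-fold lower and 3 in between, with a median of -0.70. The counting interval of the ratio lay above 1 for all 8 of the higher pieces and below 1 for 7 of the 8 lower ones, and 6 of the lower ones had an EE level under 10. Among 1214 other mRNAs of genes with more than 1 transfrag, 28.7% were at least 2-fold higher and 41.5% lower, with a median of -0.62. Among the 19 pieces both shares were 42.1%, and the difference from the other pieces was not tested. The member was the sole transfrag of its gene at least 2-fold higher in LE in 4 genes, YP039, HAL5, SIP3 and NRM1.

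**Figure D3:**
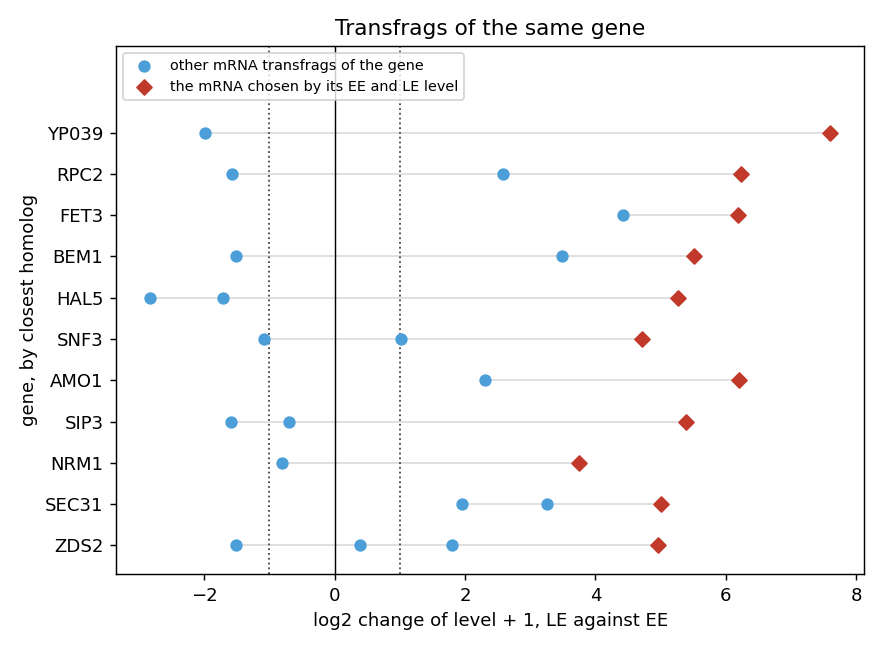
Change from EE to LE, as log2 of the level plus 1, for the mRNA transfrags of the 11 genes with several pieces; diamonds are the chosen mRNAs, whose change follows from the rule, circles are the 19 other pieces, and the dotted lines mark 2-fold. Circles lie on both sides of 0, with 8 at or past 2-fold higher and 8 at or past 2-fold lower, and YP039, HAL5, SIP3 and NRM1 have no circle past 2-fold higher.

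Transcription can run on from a gene into the next one on the same strand, so the nearest same-strand transfrag on each side of every member was read out. A same-strand neighbour within 300 bp was present for 18 of 36 members, beside 62.9% of the other mRNAs of high LE level. For 2 members that neighbour was at least as high in LE, beside 11.5% of those other mRNAs. One was the FET3 piece described above, and the other was transfrag24921, 104 bp upstream of transfrag24920, at 8.16, 163.11 and 130.93. Of the 23 neighbours within 300 bp, 18 were under 50% of the member's LE level and 13 under 10%, with a median ratio of 0.0792. The other 34 members thus had no nearest transfrag within 300 bp that reached their own LE level. Whether reads ran on into the 2 was not tested. Within 1000 bp the number with a neighbour at least as high was 8, with 3 such neighbours upstream and 5 downstream. The share over other mRNAs was not counted at that distance. Transcription of a downstream neighbour runs away from the member, so only the 3 upstream ones bear on reads that run on into it. Beside the 2 within 300 bp, the 3 include transfrag22753, 378 bp upstream of transfrag22755, at 265.74, 567.24 and 916.21. Its LE level was 6.59 times that of the member, and whether reads ran on was not tested there either. Among the 5 downstream was transfrag04071, 729 bp from HTL1, at 834.6, 2409.71 and 3376.19.

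An opposite-strand transfrag overlapped 24 of 36 members (66.7%), beside 79.0% of the other mRNAs of high LE level. It was a lancRNA for 16 members (56.4% of the other mRNAs had one) and a sancRNA for 8. One member, transfrag22755, was also overlapped by an mRNA on the other strand, transfrag25296, at 19531, 2839 and 4507. In EE, 21 of the 24 antisense transfrags were above their member, an order that the EE limit favours. Among the other mRNAs of high LE level, 90 of 3137 overlapping pairs (2.87%) had that order in EE. None of the 24 was above its member in ME, a phase the rule did not use, and none in LE, where the LE limit favours that order. In ME this was also the usual order elsewhere, since among the other mRNAs of high LE level the antisense transfrag was above the mRNA in 32 of 3137 overlapping pairs (1.02%).

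The antisense transfrags themselves did not move one way. From EE to LE, 8 were at least 2-fold higher, 10 at least 2-fold lower and 6 in between on the scale of level + 1, and the counting interval lay beyond 1 for 7 of the higher and 7 of the lower ones. Over all 5793 antisense transfrags 24.5% were higher and 46.2% lower by that measure. With levels scaled by mapped reads the order turned, with 11 of the 24 higher and 7 lower. Of the 16 lancRNAs 6 were higher (37.5%) and 5 lower (31.3%), beside 37.1% and 28.6% of all 3067 lancRNAs. Their median levels over the phases were 10.2, 11.6 and 14.3, beside 8.16, 9.71 and 8.90 over all lancRNAs.

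Single pairs show the range. Opposite RPC2, the lancRNA transfrag14670, which covers 99.2% of the member, was at 9.74, 8.47 and 38.24. It was higher in LE together with the member. Opposite YNF8, transfrag08936 went the other way, from 12.24 to 0.27 and 0, and so did transfrag11258 opposite YD186, from 8.08 to 2.00 and 0. The lancRNA opposite FET3 was at 12.24, 28.6 and 34.48, and that opposite ZDS2 at 23.24, 5.00 and 5.22. The lancRNA transfrag01892 opposite PRP17 reached 64.29 in LE, close to the 75.02 of the mRNA.

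**Figure D4:**
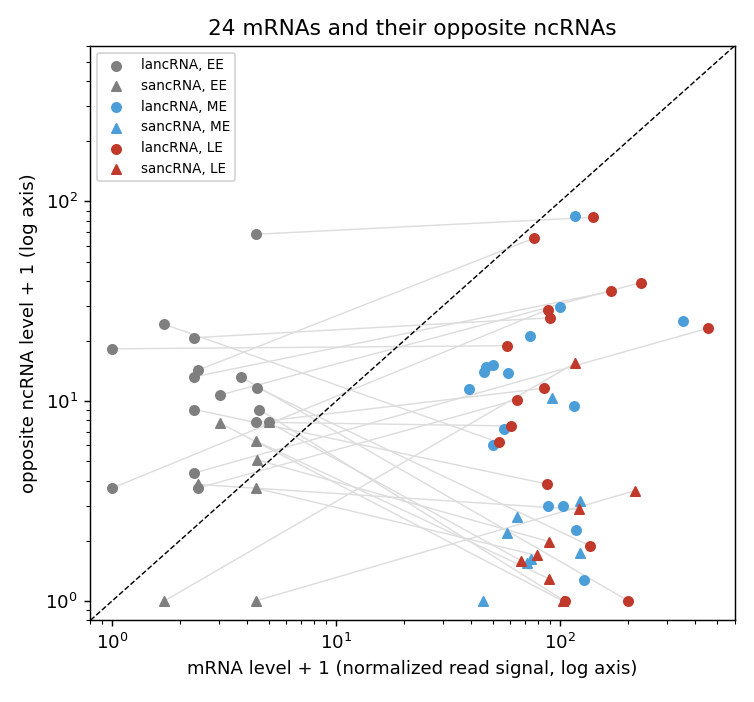
Level plus 1 of the antisense transfrag against level plus 1 of the member, both on log axes, for 24 pairs in EE (grey), ME (blue) and LE (red), with circles for lancRNAs and triangles for sancRNAs; a line joins the EE and LE points of a pair, and the dashed line marks equal levels. In EE 21 of 24 points lie above the dashed line, and in ME and LE none does.

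On the genome, 27 members were on the plus and 9 on the minus strand of their contigs, so 75.0% were on plus, beside 50.5% of the other mRNAs of high LE level. Contig 105 held 10 members, 3.15% of its 317 mRNAs with an LE level of 50 or more, and contig 106 held 7 of 289 (2.42%). Over all contigs the share was 1.37%. Contig 114 held 1 of 325 (0.308%), and contigs 98, 111 and 119 held none, of 113, 76 and 125 such mRNAs. At that share these counts are too small to tell the contigs apart, and no difference was tested. A second member lay within 20 kb for 11 of the 36 (30.6%), while 10.9% of the other mRNAs of high LE level had a member that near. The closest pairs were F16P and PSY3, 1973 bp apart, and SEC31 and SNF3, 3175 bp apart. Both pairs lie on contig 105 and on the plus strand.

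The pathways of 3 members were read out from lists of homolog names, with transfrags counted at 2-fold on the scale of level + 1. Over all mRNAs 34.2% were higher and 37.2% lower in LE, with a median log2 change of -0.28, which became 0.39, with 2452 higher and 1360 lower, when levels were scaled by mapped reads. In the metal uptake list, 7 of 11 transfrags were at least 2-fold higher and none lower, with a median of 1.41, and FET3 held 2 of the 7. With levels scaled to equal sums without the 100 highest transfrags, 5 were higher and 2 lower. ARN1, a siderophore transporter, was at 496, 4966 and 9028. CTR1, the copper transporter, was at 9730, 14404 and 25892. Within 2-fold but lower in LE were ARN2 at 26.93, 28.67 and 18.5, FRE1 at 284.34, 332.57 and 249, and transfrag01107 of FRE3 at 4.79, 6.43 and 2.85. Another transfrag of FRE3 was within 2-fold and higher, at 9.03, 12.52 and 12.23. The count of 7 includes the FET3 member, whose direction the rule fixed.

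In the mating pathway list, 5 of 11 transfrags were at least 2-fold higher and 4 lower, with a median of -0.66, and with levels scaled by mapped reads 5 were higher and 1 lower. Its higher ones were MFAL1, both transfrags of STE12, the transcription factor of the pathway, and GPA1, the G protein alpha subunit. The last was 1 of the 2 transfrags of STE3, the a-factor receptor, at 4.08, 15.33 and 15.31. MFAL1 is a member, so the rule fixed its direction. The 4 lower ones included both transfrags of STE50, at 911.78, 219.54 and 303.6 and at 26.14, 15.9 and 8.28. The others were FUS1, at 1.41, 4.24 and 0, and 1 of the 2 transfrags of STE24, at 9.5, 3.82 and 4.04. In the list of RSC and SWI/SNF remodelling subunits, 6 of 13 were higher and 4 lower. The 6 include HTL1, the only member in this list, whose low EE level and direction the rule fixed. RSC9, the partner of HTL1, was at 24.49, 146.38 and 195.89. STH1, the ATPase of RSC, was split into 4 transfrags, of which 1 was higher and 2 were lower. The lists for mitochondrial import, the respiratory chain and reserve carbohydrates held none of the 19 members with a homolog. The other 17 members had no gene name here and could not be placed in any list. In the respiratory list 7 of 9 transfrags were at least 2-fold higher, all from EE levels above 4.00, and the other two, of QCR7 and ATP19, were at least 2-fold lower. With equal sums without the 100 highest transfrags 5 were higher and 2 lower.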

How the data were processed

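Total RNA of 6 libraries, 2 for each of 3 growth phases, was sequenced by the authors after depletion of ribosomal RNA. CASAVA (1.4) and DESeq are named in the submitters' processing notes. Per the study's methods, reads were mapped to the draft contigs with CLC genomics workbench, reads with several matches were placed at random, and transfrags were built from the reads of all phases together. The deposited normalized read signal of a transfrag is its read number divided by DESeq size factors and averaged by the authors over both libraries of a phase. It was used as deposited, with 2 decimals and no length scaling. Depth per library was not used here beyond the size factors recovered below.

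Members were selected, and neighbours, opposite transfrags and gene models joined, in Python (3.11.15) with NumPy (2.4.6), pandas (2.3.3) and SciPy (1.17.1), and plots were drawn with Matplotlib (3.10.9). EE levels were split into reads of the 2 EE libraries by a search for 2 steps. On simulated EE data for 14298 transfrags the search returned the right reads for 500 of 500 low levels. Of the EE levels up to 12, 99.5% lay on the steps. Exact conditional (Clopper-Pearson) 95% limits used those reads and, for other levels, the level times the summed size factors. Fold counts used a pseudocount of 1. Neighbours were the nearest same-strand transfrags within 300 bp. Members were named if they were among the 20 highest in LE, the 15 highest with a homolog, or the 3 nearest inside each limit, with the 3 nearest outside each limit. The members and lists were chosen with earlier results of these data known. No test was run, since the table used has 1 level per phase.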

Additional observations from a re-analysis of the deposited data

How the results depend on the processing

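No paired analysis was possible because the levels used here are means over both replicates, and no replicate could be left out for the same reason. Of 33 alternatives, 17 left the value alike, which for a count means within 1.5 times. The number of members, 36, was 24 with equal sums without the 100 highest transfrags and 31 with equal sums, both within that range, and 16 with an EE limit of 2.00, 128 with 8, 68 with an LE limit of 25, 14 with 100, and 59 with levels scaled by the study's mapped reads. The median of LE over the limit, 21.9, became 33.1 against the listed EE level plus 1, 15.9 with plus 4, 37.2 with mapped reads and 19.2 with equal sums. Members with a same-strand neighbour as high in LE numbered 1 within 100 bp and 8 within 1000 bp, and 7 had an opposite transfrag over at least 50% of their length, beside 16 with a lancRNA. LE was above ME in 17 members with mapped reads and in 18 with equal sums, with or without the 100 highest, in place of 32. The pieces at least 2-fold lower in LE numbered 5 with a pseudocount of 4, an alternative chosen after seeing the data, as were the other settings for these pieces, for LE above ME, for antisense transfrags and for the gene lists under other scalings. Scaling by mapped reads moved all levels by 1.31 (ME) and 0.77 (LE) on the log2 scale against EE and turned the median change of all mRNAs in LE from -0.28 to 0.39, while equal sums gave -0.44. Members held at most 5 EE reads each, a ceiling set by the EE limit, so the EE value of every member rests on few reads.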
